A study of Mus musculus with 10 samples.

Results

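Interferon-induced genes were examined in livers of *db/db* mice that carried AAV8-Control. The set is 38 mouse genes given by name, among them the chemokines *Cxcl9* and *Cxcl10*, and its members are the rows of the deposited expression table with one of these symbols. The table held 36 of them among its 15126 genes, and *Mx2* and *Gbp6* were not analysed here. Of the 36, 22 are genes usually induced through type I interferon signaling and 14 are genes induced above all by interferon gamma (gamma-type genes). The split follows general knowledge of these genes, and many of them answer to both kinds of interferon.

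The 5 libraries came from *db/db* mice, a strain that lacks the signaling form of the leptin receptor and becomes obese, diabetic and steatotic, and all were 10 weeks old per the labels. AAV8 is an adeno-associated virus serotype that reaches hepatocytes efficiently, and AAV8-Control encoded eGFP. Every liver had thus received a virus, and the promoter of the vector is not given in the sources used here. The labels name the tissue as liver, but also name primary hepatocytes as the cell type and describe adenovirus treatment of cultured cells. The study's text calls the samples livers of the infected mice, and they are called livers below. The labels number the libraries 1 to 5 and do not state that each is a separate mouse, so the spread between them may be in part technical. With 1 group of livers no test between groups was made, and the values are descriptions.

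Interferons are secreted proteins that tell cells of an infection. Type I interferons signal through IFNAR and the JAK1 and TYK2 kinases to transcription factors that bind the interferon-stimulated response element (ISRE). Interferon gamma comes mainly from T and natural killer (NK) cells and signals through IFNGR and JAK1 and JAK2 to factors that bind the gamma-activated site (GAS). In liver, hepatocytes, macrophages and endothelial cells all answer to these signals, and CXCL9 and CXCL10 draw T and NK cells that bear the receptor CXCR3.

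Expression was measured as CPM, the reads of a gene scaled to the total reads counted on genes. Totals were 19499795 to 35498596 reads per library, so that 1 read was worth 0.0282 to 0.0513 CPM. A list of 12 hepatocyte markers summed to 108734 to 144300 CPM per library, and markers of Kupffer cells, endothelial cells and stellate cells were present too. In such bulk samples, fewer cells of a type and less RNA per cell cannot be told apart.

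The gamma-type genes varied more from liver to liver than the type I genes, above all through replicate 4. Of the 36 genes, 32 averaged at least 1 CPM, 18 of type I and 14 gamma-type, beside 11041 of all genes. *Tgtp1* reached 1 CPM only through replicate 4, so that it had to vary, and it is left out of the counts and medians of the gamma-type genes, which are over the other 13. Between the highest and the lowest liver these 13 differed by a median of 3.01 times, the type I genes by 1.5 times and all genes by 1.30 times. Without replicate 4 the median was 1.77 in the gamma-type genes and 1.44 in the type I genes. The highest liver was at least 2 times the lowest in 10 of 13 gamma-type genes and 3 of 18 type I genes, compared with 8.46% of all genes. The coefficient of variation had a median of 45.0% in the gamma-type genes, 16.6% in the type I genes and 10.6% in all genes. Both measures rest in part on replicate 4. Without it the highest liver was at least 2 times the lowest in 4 of 13 gamma-type genes, 2 of 18 type I genes and 5.62% of all genes, and the median coefficient of variation was 27.5%, 16.6% and 9.85%.

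The chemokines had the widest range of the role groups, with a median of 9.57 times between the highest and the lowest liver. *Cxcl9* (ENSMUSG00000029417, chr5:92321347-92328079 on the reverse strand of GRCm38) encodes a ligand of CXCR3 that interferon gamma induces in macrophages, endothelial cells and hepatocytes. In replicates 1 to 5 it was at 8.92, 46.4, 10.3, 95.2 and 19.96 CPM. Replicate 4 stood far above every other liver and replicate 2 above the remaining 3. The mean of 36.2 ± 36.3 CPM (SD, 5 livers) thus rested on these livers, and without replicate 4 it was 21.4 CPM.

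*Cxcl10* (ENSMUSG00000034855, chr5:92346638-92348889, reverse strand) encodes another CXCR3 ligand, induced by both kinds of interferon, and lies 18.6 kb from *Cxcl9*. It was at 1.18, 3.66, 1.49, 9.99 and 2.42 CPM in replicates 1 to 5, a mean of 3.75 ± 3.62 CPM (SD, 5 livers). Without replicate 4 the mean was 2.19 CPM. Both chemokines put the livers in the same order, from replicate 4 down through replicates 2, 5, 3 and 1. The level in replicate 4 was 6.30 times the median of the other 4 livers for *Cxcl9* and 5.11 times for *Cxcl10*.

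**Figure D1:**
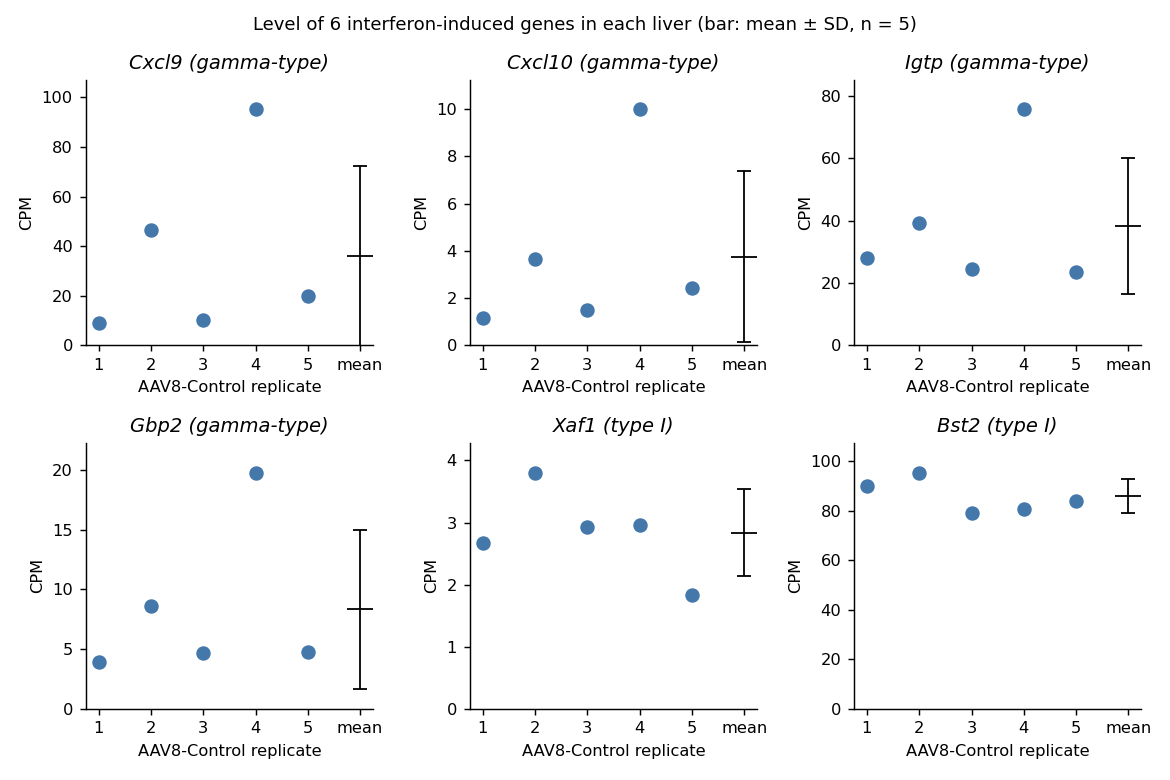
Level in CPM (linear axes from 0) of 4 gamma-type and 2 type I genes in each of the 5 AAV8-Control livers, with the mean ± SD (n = 5 livers) as the bar on the right. In *Cxcl9*, *Cxcl10*, *Igtp* and *Gbp2* replicate 4 stood alone at 95.2, 9.99, 75.6 and 19.8 CPM, while in *Xaf1* and *Bst2* replicate 2 was highest at 3.80 and 95.4 CPM.

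The sequences before the starts of 7 members are shown with any letters of interferon elements found in them. The RefSeq table used here (GRCm38.p6) held such windows for 29 of the 36 genes, 33 windows in all, and the 250 bases before the start were searched on both strands for the ISRE letters (TTTC, any 2 bases, then TTTC) and the GAS letters (TTC, any 3 bases, then GAA). Matches are in capitals, each window reads 5′ to 3′ along its gene, and positions are counted back from the start. The windows are chr5:92328080-92328329 (reverse strand) for *Cxcl9*, chr5:92348890-92349139 (reverse) for *Cxcl10*, chr11:58199306-58199555 (forward) for *Igtp*, chr8:71537473-71537722 (reverse) for *Bst2*, chr4:156200819-156201068 (reverse) for *Isg15*, chr19:34583279-34583528 (forward) for *Ifit3* and chr11:72301379-72301628 (forward) for *Xaf1*.
Cxcl9: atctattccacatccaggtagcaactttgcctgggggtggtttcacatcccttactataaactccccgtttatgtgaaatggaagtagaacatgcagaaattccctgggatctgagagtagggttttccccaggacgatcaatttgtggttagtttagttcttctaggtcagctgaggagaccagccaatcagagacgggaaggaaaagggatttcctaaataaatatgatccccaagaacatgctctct
Cxcl10: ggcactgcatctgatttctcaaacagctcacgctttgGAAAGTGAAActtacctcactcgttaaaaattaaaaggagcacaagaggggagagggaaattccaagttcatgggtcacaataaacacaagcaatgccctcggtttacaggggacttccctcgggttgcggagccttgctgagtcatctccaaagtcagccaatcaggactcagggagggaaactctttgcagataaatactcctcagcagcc
Igtp: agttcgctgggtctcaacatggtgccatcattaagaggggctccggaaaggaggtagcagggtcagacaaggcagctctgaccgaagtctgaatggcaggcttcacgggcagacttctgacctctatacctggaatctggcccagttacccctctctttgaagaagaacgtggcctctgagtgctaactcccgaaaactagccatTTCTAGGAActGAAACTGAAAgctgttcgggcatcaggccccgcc
Bst2: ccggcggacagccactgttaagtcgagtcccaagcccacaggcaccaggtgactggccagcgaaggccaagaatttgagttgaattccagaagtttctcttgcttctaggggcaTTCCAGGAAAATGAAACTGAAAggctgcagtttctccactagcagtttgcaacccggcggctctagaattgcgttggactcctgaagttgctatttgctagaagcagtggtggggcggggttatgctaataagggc
Isg15: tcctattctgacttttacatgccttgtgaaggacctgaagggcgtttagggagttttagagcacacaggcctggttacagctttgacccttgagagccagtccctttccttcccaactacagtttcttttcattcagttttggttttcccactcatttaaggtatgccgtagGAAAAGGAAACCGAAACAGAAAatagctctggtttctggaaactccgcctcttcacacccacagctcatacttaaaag
Ifit3: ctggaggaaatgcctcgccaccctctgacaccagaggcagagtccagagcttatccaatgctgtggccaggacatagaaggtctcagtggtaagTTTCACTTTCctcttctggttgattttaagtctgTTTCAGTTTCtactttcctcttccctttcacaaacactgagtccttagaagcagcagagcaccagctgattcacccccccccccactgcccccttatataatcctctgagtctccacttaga
Xaf1: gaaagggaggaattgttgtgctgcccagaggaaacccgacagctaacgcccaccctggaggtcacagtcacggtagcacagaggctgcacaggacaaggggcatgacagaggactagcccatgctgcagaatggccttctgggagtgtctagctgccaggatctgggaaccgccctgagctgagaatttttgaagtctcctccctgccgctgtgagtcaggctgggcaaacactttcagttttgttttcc
The *Cxcl10* window held the ISRE letters from -213 to -204. In *Igtp* the GAS letters from -45 to -37 stood next to the ISRE letters from -34 to -25. *Bst2* had 2 overlapping ISRE matches, the first of which also overlaps a GAS match, *Isg15* had 3 overlapping ISRE matches between -78 and -57, and *Ifit3* had 2 apart from each other. Neither pattern is in the windows of *Cxcl9* and *Xaf1*, which says only that these letters are not in these bases.

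A gene was counted as holding a pattern where any of its windows did. The ISRE letters were in 16 of the 29 members, 8 of 17 type I genes and 8 of 12 gamma-type genes, and in 3.46% of all 27025 genes of the table. The GAS letters were in 8 members, 3 of 17 type I genes and 5 of 12 gamma-type genes, and in 8.13% of all genes. Both in 1 window were found for 6 members and for 0.400% of all genes. No test between the classes was made, and the matches describe letters and not bound sites.

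The immunity-related GTPases are proteins that interferon gamma induces in mouse cells to attack vacuoles that hold microbes. The 5 other than *Tgtp1* were highest in replicate 4, at 1.73 to 2.88 times the median of the other livers. Of all genes, 16.4% were highest there and 1.43% were at least 1.5 times the median of the others. *Igtp* (ENSMUSG00000078853, chr11:58199556-58207591, forward strand), also known as Irgm3, belongs to the regulatory branch of the family. It was at 28.0, 39.2, 24.5, 75.6 and 23.5 CPM in replicates 1 to 5. Replicates 1, 3 and 5 lay close together, replicate 2 above them and replicate 4 at 2.88 times the median of the others.

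*Irgm2* (ENSMUSG00000069874, chr11:58199618-58222782, forward strand) is a second regulatory member. Its levels were 30.8, 36.9, 20.8, 62.7 and 22.1 CPM in replicates 1 to 5, and replicates 4 and 2 were again the highest pair. The annotated bounds of *Igtp* and *Irgm2* overlap, and 11.8% of the 50-base windows of *Igtp* transcripts also occur in other genes, most in *Irgm2*, so reads from these windows cannot be assigned to 1 gene.

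*Ifi47*, also known as Irgd, was at 8.41, 16.3, 9.10, 21.3 and 9.23 CPM in replicates 1 to 5, with a clear step between replicates 2 and 4 and the rest. *Iigp1* (Irga6), an effector that coats parasite vacuoles, was at 105, 166, 97.5, 218 and 113 CPM in replicates 1 to 5, a mean of 140 ± 51.0 CPM (SD, 5 livers). *Irgm1*, a regulator also tied to autophagy, was less variable at 49.6 ± 14.02 CPM, with 73.2 CPM in replicate 4 and 38.8 to 51.4 CPM elsewhere.

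*Tgtp1* (Irgb6) was at 3.61 CPM in replicate 4, 0.963 CPM in replicate 2 and 0.169 to 0.435 CPM in the other 3 livers, from 4 to 99 reads per library. Its ratio of 11.3 for replicate 4 rests on these low counts, and without that liver its mean was 0.443 CPM. Of its 50-base windows, 79.4% also occur in its copy *Tgtp2*, so reads from these windows cannot be told apart.

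Guanylate-binding proteins are large GTPases that act with the immunity-related GTPases. The 3 listed were highest in replicate 4, compared with 16.4% of all genes. *Gbp2* (ENSMUSG00000028270, chr3:142620602-142638008, forward strand) was at 3.90, 8.62, 4.65, 19.8 and 4.78 CPM in replicates 1 to 5, so that replicate 4 was 4.20 times the median of the others. Replicates 1, 3 and 5 lay within 1 CPM of each other. *Gbp3* was at 8.64 CPM in replicate 4, 6.11 CPM in replicate 2 and 2.37 to 3.74 CPM in the rest. *Gbp7* averaged 12.5 ± 4.36 CPM (SD, 5 livers), and its level in replicate 2, 11.9 CPM, did not stand out.

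The remaining gamma-type genes are a transcription factor and genes of antigen presentation and the checkpoint. *Irf1*, a transcription factor that passes the interferon signal on, was at 18.9, 23.4, 16.8, 30.1 and 17.0 CPM in replicates 1 to 5. *Cd274*, which encodes the checkpoint ligand PD-L1, was at 6.01 CPM in replicate 4 and at 1.88 to 3.54 CPM elsewhere, with replicate 1 rather than 2 in second place. *Nlrc5*, the transactivator of MHC class I genes, was the exception of the class. It was highest in replicate 4 by little, at 17.8 CPM and 1.12 times the median of the others, and was set apart by its low level in replicate 5, 10.7 CPM.

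The type I genes were more even. Of the 7 antiviral effectors over 1 CPM, 6 were highest in replicate 2 and 1 in replicate 4, compared with 12.3% and 16.4% of all genes. Their ratio of replicate 4 to the median of the others was 0.929 to 1.4. *Bst2* (ENSMUSG00000046718, chr8:71534255-71537456, reverse strand) encodes tetherin, which holds budding virus particles at the cell surface. Levels were 90.2, 95.4, 79.1, 80.8 and 83.8 CPM in replicates 1 to 5, a range of 1.21 times. *Xaf1* (ENSMUSG00000040483, chr11:72301629-72313733, forward strand), which encodes a factor that antagonizes the apoptosis inhibitor XIAP, was at 2.67, 3.80, 2.93, 2.95 and 1.84 CPM. Here replicate 4 lay with replicates 1 and 3, and replicates 2 and 5 marked the ends.

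*Rtp4*, a zinc finger protein that restricts RNA viruses, was at 6.41, 8.47, 6.25, 6.12 and 5.65 CPM in replicates 1 to 5, with replicate 2 alone above the rest. *Ifit3*, a scaffold for the RNA-binding IFIT proteins, was at 3.69, 5.30, 4.03, 5.03 and 4.64 CPM. *Ifit1*, which binds viral RNA caps, was the effector that replicate 4 led, at 6.31 CPM against 3.33 to 5.10 CPM in the others. *Ifit2* averaged 2.30 ± 0.389 CPM, and *Rsad2* (viperin, which makes a nucleotide that stops viral polymerases) 4.72 ± 0.315 CPM (SD, 5 livers each). Of the 50-base windows of *Ifit3*, 51.2% also occur in *Ifit3b*, so reads from these windows cannot be told apart.

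The OAS proteins sense double-stranded RNA. *Oasl2* was at 2.92, 3.47, 2.34, 3.64 and 2.13 CPM in replicates 1 to 5, and *Oas2* averaged 1.15 ± 0.347 CPM (SD, 5 livers). *Oasl1*, known as a brake on IRF7 translation, was at 21.3, 19.7, 18.7, 13.7 and 17.7 CPM. It was lowest in replicate 4, the reverse of the chemokines.

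*Isg15*, the ubiquitin-like modifier, was at 3.74, 4.43, 3.07, 4.77 and 3.14 CPM in replicates 1 to 5. *Usp18*, the protease that removes ISG15 and damps IFNAR signaling, was at 5.28, 6.50, 4.73, 9.29 and 3.53 CPM. It was the type I gene over 1 CPM that stood out most in replicate 4, at 1.86 times the median of the others. Of the transcription factors, *Irf7* was at 34.3 CPM in replicate 2 and 13.8 CPM in replicate 5, with 22.6 to 24.7 CPM between them. *Irf9* averaged 22.6 ± 3.76 CPM and *Stat2* 33.4 ± 1.06 CPM (SD, 5 livers each).

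The cytoplasmic RNA sensors hardly varied. *Ifih1* (MDA5) was at 29.5 ± 1.72 CPM, *Ddx58* (RIG-I) at 24.2 ± 1.07 CPM and *Dhx58* (LGP2) at 6.69 ± 0.747 CPM (SD, 5 livers each). With *Stat2*, whose highest liver was 1.07 times its lowest, *Ddx58* and *Ifih1* were the steadiest of the members.

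The 4 members under 1 CPM were *Oas1a*, *Oas1g*, *Mx1* and *Ifi44*, with 2 to 37 reads per library. *Mx1*, the dynamin-like restriction factor that many laboratory strains carry in a broken form, averaged 0.433 ± 0.145 CPM and *Ifi44* 0.973 ± 0.266 CPM (SD, 5 livers each). *Oas1a* and *Oas1g* share 57.6% and 45.7% of their 50-base windows with other genes, above all each other. Counts this low carry a large counting error, and differences between livers in these genes are not described.

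**Figure D2:**
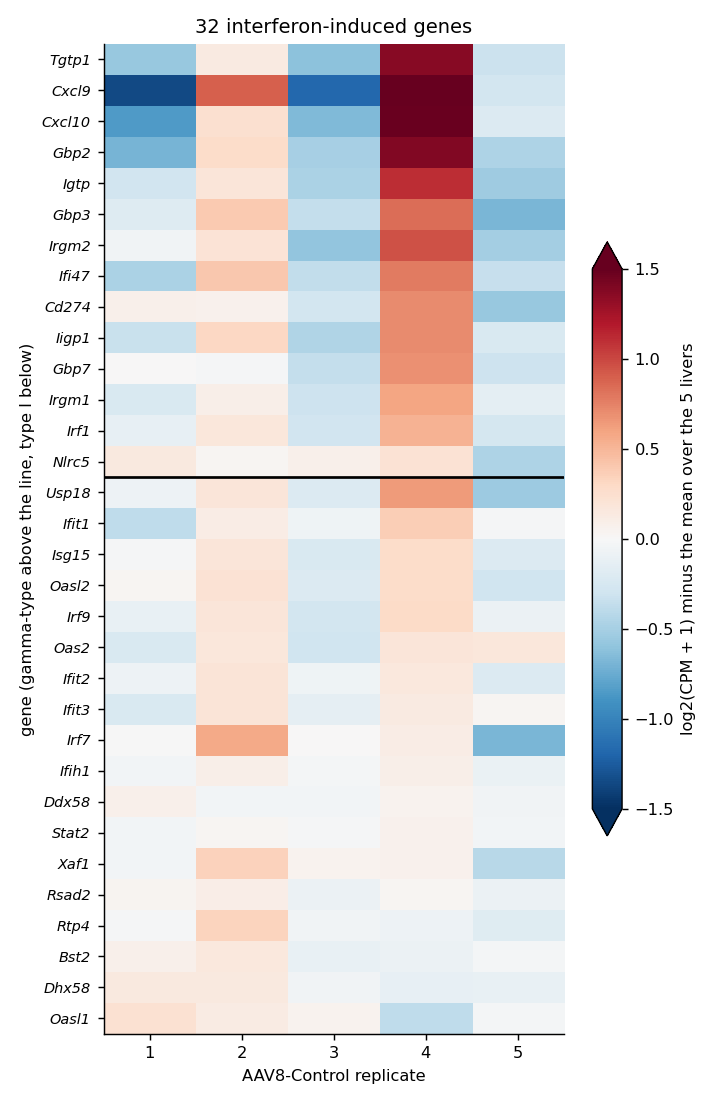
Deviation of log2(CPM + 1) from the mean of the 5 AAV8-Control livers (color, cut at 1.5 on either side of 0) for 32 genes in rows, gamma-type above the line and type I below it, each class ordered by the ratio of replicate 4 to the median of the others. Replicate 4 was highest for each of the 13 gamma-type genes other than *Tgtp1*, which reached 1 CPM only through that liver. It was highest for 7 of the 18 type I genes and for 16.4% of all genes.

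Replicate 2 or 4 was highest for most genes of either class, and the classes differed in how far replicate 4 stood above the others. That replicates 2 and 4 stood apart was noticed after the values were seen, so the counts are descriptions. Over all genes the read counts of replicate 4 were also mostly further from those of the other livers. The chi-square per degree of freedom was 40.1 to 116 in its 4 pairs and 15.9 to 44.3 in the pairs without it, so that the ranges overlap. This measure grows with depth and rests most on genes with many reads. The part of this distance in the gamma-type levels was not tested. Replicate 4 was highest for 13 of 13 gamma-type genes and 7 of 18 type I genes, compared with 16.4% of all genes. It was at least 1.5 times the median of the others for 12 gamma-type genes and 1 type I gene, and for 1.43% of all genes. The type I counts depend on single libraries. With replicate 2 left out, replicate 4 was highest for 12 type I genes, and 4 type I genes were at least 1.5 times the median of the others without replicate 1 or 2, 3 without replicate 5 and 2 without replicate 3. The ratio of replicate 4 to the median of the others had a median of 2.33 over the gamma-type genes, 1.09 over the type I genes and 0.966 over all genes.

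Replicate 2 was highest for 9 type I genes and 0 gamma-type genes, and for 12.3% of all genes. It was at least 1.5 times the median of the others for 6 gamma-type genes and 1 type I gene, and for 2.83% of all genes. Either replicate 2 or replicate 4 was highest for 13 gamma-type and 16 type I genes and for 28.7% of all genes. They were the highest pair for 10 gamma-type and 11 type I genes, and for 5.28% of all genes. Replicate 5 was lowest for 9 type I and 4 gamma-type genes, compared with 15.4% of all genes.

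**Figure D3:**
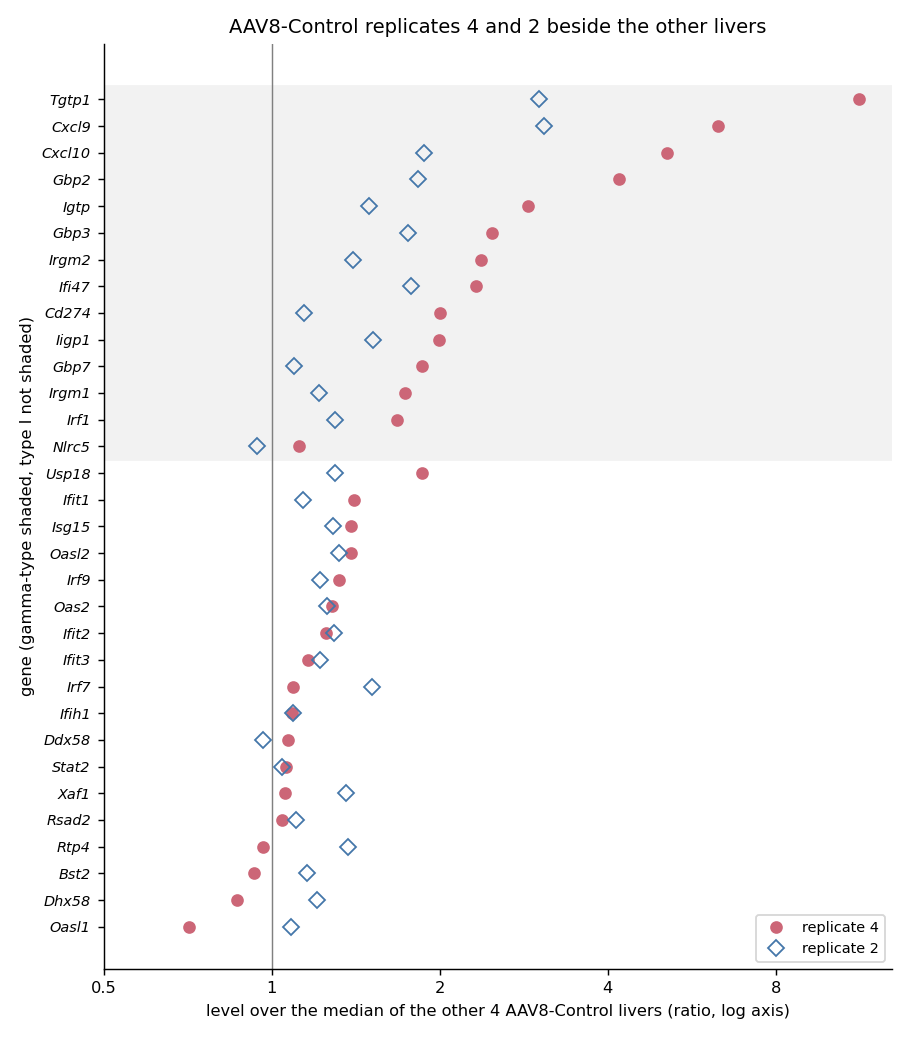
Level of each of the 32 genes in replicate 4 (filled red points) and replicate 2 (open blue diamonds) over the median of the other 4 AAV8-Control livers, as a ratio on a log axis, with gamma-type genes shaded. Apart from *Tgtp1*, which reached 1 CPM only through replicate 4, that liver ran from 1.12 times for *Nlrc5* to 6.30 times for *Cxcl9* in the gamma-type genes, and from 0.712 times for *Oasl1* to 1.86 times for *Usp18* in the type I genes.

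Summarized by the median deviation of log2(CPM + 1) from the mean of the livers, the gamma-type genes were at 0.78 in replicate 4 and 0.20 in replicate 2, and between -0.37 and -0.22 in the other 3 livers. The type I genes were at 0.17 in replicate 2 and 0.10 in replicate 4, and between -0.09 and -0.03 in the others. Over all genes the medians lay between -0.04 and 0.06.

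**Figure D4:**
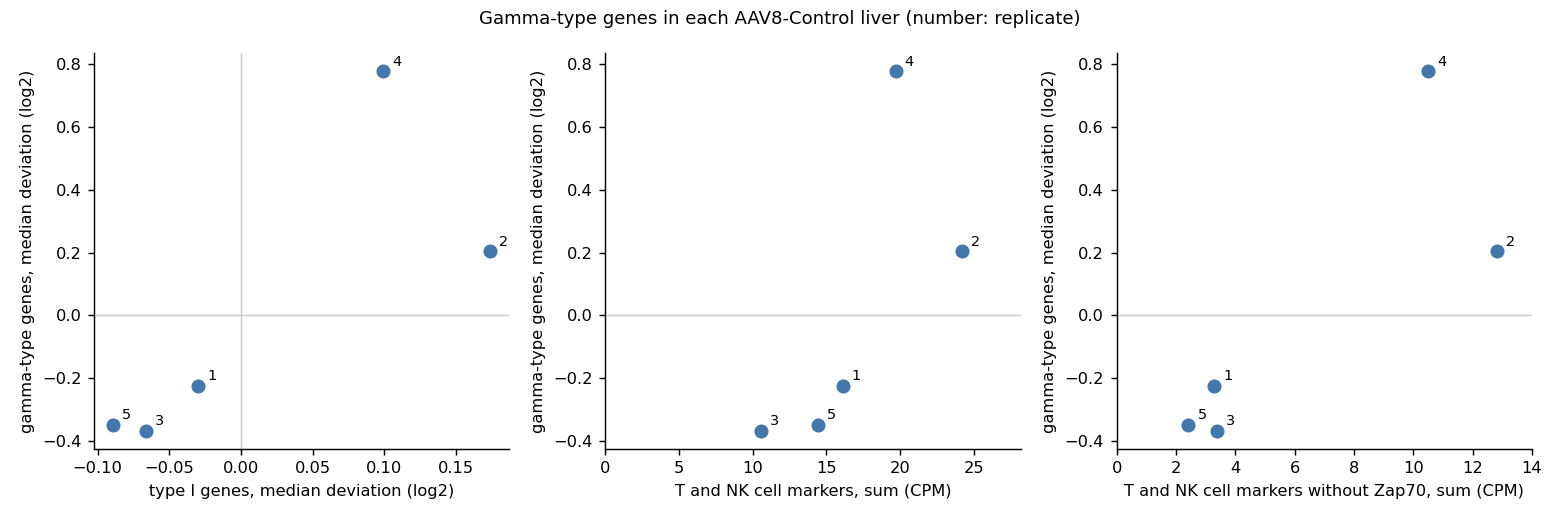
Median deviation of log2(CPM + 1) of 13 gamma-type genes in each AAV8-Control liver (vertical) against that of the 18 type I genes (left), the summed CPM of 18 T and NK cell markers (middle) and that sum without *Zap70* (right), with the replicate number beside each point. Replicates 2 and 4 were at 24.2 and 19.7 CPM in the middle panel, with replicate 1 next at 16.1 CPM, and at 12.8 and 10.5 CPM in the right panel, with the other 3 livers at 2.42 to 3.38 CPM.

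Markers of T and NK cells summed to 16.1, 24.2, 10.6, 19.7 and 14.4 CPM in replicates 1 to 5 over the list of 18. Replicates 2 and 4 were the highest pair, with replicate 4 at 1.29 times the median of the others. *Zap70* alone gave 7.18 to 12.8 CPM of the sum and did not follow, at 0.787 times the median of the others in replicate 4. Without it, a choice made after the values were seen, the sum was 3.28, 12.8, 3.38, 10.5 and 2.42 CPM in replicates 1 to 5.

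Of the 18 markers, 16 were highest in replicate 2 or 4 and 15 had them as the highest pair, against 28.7% and 5.28% of the genes over 1 CPM. The sets are unlike, since only 2 of the 18, *Zap70* and *Ccl5*, averaged 1 CPM and the others rest on few reads, with none at 0 in every library. The examples that follow were picked after their values were seen. *Cd8a*, for CD8 T cells, had 34 reads in all and was at 0.578 and 0.547 CPM in replicates 2 and 4 and at no more than 0.113 CPM in the others. *Gzmb*, which encodes granzyme B, was at 1.54 and 2.005 CPM there and at 0.154 to 0.242 CPM elsewhere. *Prf1*, which encodes perforin, was highest in replicate 2 and at only 1.17 times the median of the others in replicate 4. Besides *Zap70*, *Cd3e* and *Ncr1* did not have these livers as the highest pair. *Cd3e*, for T cells, was highest in replicate 1, and *Ncr1*, for NK cells, had 5 reads in all and 0 in replicate 4. The part of these cells in the gamma-type levels was not tested.

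Markers of other cells ordered the livers in several ways. Kupffer cell and macrophage markers summed to 412 CPM in replicate 2 and 246 CPM in replicate 4, within a range of 202 to 412 CPM. Of the 12, 11 were highest in replicate 2, compared with 12.3% of all genes. Replicates 2 and 4 were the highest pair for 0 of the 12, compared with 5.28% of all genes. Stellate cell markers were highest in replicate 2, at 321 CPM, and lowest in replicate 4, at 239 CPM, with the others at 247 to 250.2 CPM. Sinusoidal endothelial markers were lowest in replicate 4, at 138 CPM, and at 189 to 285 CPM in the others. B cell markers summed to 1.20 to 3.03 CPM, highest in replicate 2, and neutrophil markers to 1.45 to 3.18 CPM, with replicate 4 lowest and second lowest of the livers. Monocyte and dendritic cell markers were highest in replicates 2 and 4, at 11.2 and 9.70 CPM against 6.48 to 7.38 CPM. These were the highest pair for 6 of the 13 markers, compared with 5.28% of all genes. Only 3 of the 13 averaged 1 CPM, and replicate 4 was at 0.704, 0.897 and 2.02 times the median of the others in these (*Itgam*, *Gpnmb* and *Clec9a*). The sum of cholangiocyte markers was also highest in replicates 2 and 4, at 54.0 and 49.8 CPM against 33.5 to 42.7 CPM. *Spp1* gave most of that sum, at 26.9 to 42.8 CPM. These livers were the highest pair for 3 of the 6 markers, compared with 5.28% of all genes, but not for *Krt7*, *Epcam* and *Sox9*. The sum of hepatocyte markers was highest there too, at 132571 and 144300 CPM with replicate 3 close by at 132436 CPM. *Alb*, for albumin, gave most of that sum. Replicates 2 and 4 were the highest pair for 2 of the 12 hepatocyte markers, compared with 5.28% of all genes. The part of these cells in the levels was not tested.

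The rest of the pathway was read from lists of 125 other genes, of which 97 were listed in the table and 75 averaged at least 1 CPM. Of 21 interferon genes, only *Ifnk* and *Ifng* were listed, both far under that level. *Ifng* had 3 reads over the 5 libraries, 2 of them in replicate 4, so its level could not be compared. The receptor genes for type I interferon and interferon gamma were even. *Ifnar1* and *Ifnar2* were at 28.9 ± 2.12 and 59.1 ± 3.88 CPM and *Ifngr1* and *Ifngr2* at 12.7 ± 1.44 and 23.5 ± 1.93 CPM (SD, 5 livers each). Of the other receptor genes listed, *Il10rb* was lowest in replicate 4, at 0.734 times the median of the others. *Ifnlr1*, under 1 CPM, had 2 to 13 reads per library.

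Of 16 signal transduction genes over 1 CPM, 3 were highest in replicate 4 and 0 reached 1.5 times the median of the others there, compared with 16.4% and 1.43% of all genes. These counts are near the shares of all genes. In 1 of the 16 the highest liver was at least 2 times the lowest, compared with 8.46% of all genes, namely *Irf8*, a factor of myeloid cells, at 5.44, 5.25, 5.21, 4.52 and 2.08 CPM in replicates 1 to 5. The kinases *Jak1*, *Jak2* and *Tyk2* were at 87.8 ± 2.93, 13.7 ± 0.810 and 20.9 ± 2.66 CPM (SD, 5 livers each). Of 9 negative regulators over 1 CPM, 2 were highest in replicate 4 and 0 reached 1.5 times there, again near the shares of all genes. *Socs1*, under 1 CPM, was at 1.56 times the median of the others there, on 4 to 10 reads per library.

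Of 44 other interferon-induced genes over 1 CPM, 18 were highest in replicate 4 and 13 in replicate 2, compared with 16.4% and 12.3% of all genes. At least 1.5 times the median of the others in replicate 4 were 7, compared with 1.43% of all genes. The 7 were *Ubd* (the ubiquitin-like FAT10), *Zbp1* (a sensor of Z-form nucleic acid), *Gbp4*, *Serpina3g*, *Psmb9* and *Psmb8* (subunits of the immunoproteasome) and *Ifit3b*, which passed 1 CPM only through replicate 4. Of the 43 that averaged 1 CPM also without the highest liver, 6 were at least 1.5 times the median of the others there. *Ubd* was at 0.615, 3.27, 0.845, 3.35 and 1.35 CPM in replicates 1 to 5, high in replicates 2 and 4 alike. *Zbp1* was at 7.11 CPM in replicate 4 and at 2.85 to 4.24 CPM in the others. *Cxcr3*, the receptor of both chemokines, is also 1 of the T and NK cell markers above. It had 53 reads over the libraries and was at 0.819 and 0.656 CPM in replicates 2 and 4 and at 0.193 to 0.256 CPM in the rest.

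Levels can be compared between genes only per length. The length used here is that of all annotated exons of a gene merged, which can exceed that of any 1 transcript, so the order is approximate. *Bst2* was by far the highest member at 95.1 CPM per kb of exon. *Iigp1* followed at 24.0, *Igtp* at 18.9 and *Cxcl9* at 12.0 CPM per kb, while *Cxcl10* was at 1.66 CPM per kb. The lowest members over 1 CPM were *Oas2*, *Tgtp1* and *Oasl2* at 0.259, 0.336 and 0.455 CPM per kb. Only uniquely aligned reads were counted and 81.2% of the 50-base windows of *Tgtp1* occur in other genes, so its level may be too low and its place in this order is uncertain. For *Cxcl9* the spread between livers was as large as its level, and for *Cxcl10* nearly so (SD 1.61 CPM per kb). Their places in this order thus depend on the liver.

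Some members lie close to one another. Of the 36 genes, 16 lie within 100 kb of another member, 9 of 14 gamma-type and 7 of 22 type I genes. They include the pair of chemokines on chromosome 5, the 3 guanylate-binding proteins on chromosome 3, *Igtp* with *Irgm2* on chromosome 11 and the 3 *Ifit* genes on chromosome 19. No such share was computed over all genes, so the counts only describe the chosen members.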

How the data were processed

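The series holds 10 RNA-seq libraries. The 5 from *db/db* livers given AAV8-Control were analysed, and the others, with any comparison between groups, are not reported here. Per the study's methods and the submitters' processing notes, single reads of 50 bases were aligned with STAR 2.0.4b (build GRCm38.p2) and uniquely aligned unambiguous reads were counted on genes with featureCounts 1.4.5. Strand use is not given in the sources used here. The authors deposited CPM values, scaled to all reads counted on genes, for protein-coding genes in 15236 lines, of which 110 repeat a gene with the same values. Between 97.8% and 98.3% of a library's reads fell on the listed genes. Each value was divided by what 1 read is worth to recover reads, and 100% of values were whole within 0.02 reads.

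Levels, ratios between livers, SD (n = 5) and deviations of log2(CPM + 1) were computed in Python with pandas for the 11041 genes that averaged 1 CPM or more. Alternatives were a pseudocount of 0.1, no filter, at least 10 reads in every library, median-of-ratios size factors and each library left out in turn. A mean of 1 CPM also without the highest liver, by which *Tgtp1* was left out of the gamma-type counts and medians, was added after the values were seen. The closest pair of libraries had a chi-square per degree of freedom of 15.9, so none was counted as a duplicate.

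The members and lists were chosen with earlier results of these data known. All members are given by role, with the level in every library for *Cxcl9* and *Cxcl10* and for those that show how the livers differ, some of them chosen after their values were seen. Positions, exon lengths and shared 50-base windows came from GENCODE (GRCm38), and windows before gene starts from RefSeq (GRCm38.p6).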

Additional observations from a re-analysis of the deposited data

Results flagged for a closer look

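For each of the 36 genes, the highest and lowest of the 5 livers were compared with the nearest other one by Dixon's criterion on log2(CPM + 1). In 1 gene the gap was past the critical value of 0.71, and chance alone gives about 1 in 20. *Nlrc5* was at 10.7 CPM in AAV8-Control replicate 5 and at 15.6 to 17.8 CPM in the other livers. The call depends on the scale. On CPM itself the ratio of gap to range was 0.687 for *Nlrc5*, and 4 other genes were past the value, *Tgtp1* (0.769), *Gbp7* (0.728) and *Cxcl10* (0.718) with replicate 4 highest and *Rtp4* (0.732) with replicate 2 highest.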

How the results depend on the processing

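Of the gamma-type genes, 14 were highest in AAV8-Control replicate 4 with each other library left out, and 13 were at least 1.5 times the median of the others there, all with *Tgtp1* included, while at least 10 reads in every library, or a mean of 1 CPM also without the highest liver, gave 13 and 12 without it. Over all 14, the median of that ratio was 2.17 to 2.53 with a library left out, and 1.08 to 1.10 in the type I genes. Of the type I genes, 7 were highest in replicate 4, and 8 to 12 with a library left out, 12 of them without replicate 2. At least 1.5 times the median of the others were 1 type I gene, 2 with no filter or at least 10 reads in every library, and 2 to 4 with a library left out, with 4 without replicate 1 or 2, 3 without replicate 5 and 2 without replicate 3. With a library left out, the median ratio of the highest to the lowest liver was 1.77 to 3.10 in the gamma-type genes and 1.43 to 1.5 in the type I genes, and the median SD of log2(CPM + 1) was 0.34 to 0.63 and 0.19 to 0.21. The lowest gamma-type values, 1.77 and 0.34, were those without replicate 4. The cause was not tested. The sum of T and NK cell markers in replicate 4 was 1.29 times the median of the others, and 3.15 times without *Zap70*. All 300 bases of the RefSeq windows put the ISRE letters in 18 members. These and the mean without the highest liver were tried after the data were seen. So was the hepatocyte marker sum without *Alb*, which was lowest in replicate 3, at 27392 CPM, and highest in replicates 4 and 2, at 32690 and 31026 CPM. The other alternatives moved no value by more than 1.5 times. Genes with few reads per library limit what can be seen of the members under 1 CPM.

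No paired analysis was possible because every value comes from 1 group of livers. The planned fits by limma, edgeR and DESeq2 compare groups and give no value for 1 group.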
